A study of Homo sapiens with 6 samples.

Results

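Natural antisense RNAs are transcripts read from the DNA strand opposite to that of a coding gene. Those whose symbol ends in -AS1 carry the name of a coding gene they lie against or near, called the sense partner here. The 385 antisense RNAs described here are the rows of a raw count table whose symbol ends in -AS1 and whose counts summed over 6 libraries were at least 100. The table held 1643 such symbols, of which 1258 were under this minimum and 322 had no count. Members were chosen by their summed counts alone, so their levels are a description. The rule did not use the change between the groups. The sum covers both groups, however, so a rare member can pass through the group where it is higher.

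The cells were U2OS, a human osteosarcoma line, sequenced as polyA RNA. In 3 libraries the cells had received siSURF2, an siRNA against SURF2. In 3 libraries they had received siSCR, a scrambled siRNA. Both groups were transfected 2 times, 49 h apart, in medium with 10% serum and were harvested at 96 h. An siRNA lowers its target transiently and in part, and the libraries analysed here come from a single line with a single targeting siRNA. Nothing in the labels states that the 3 libraries of a group came from separate cultures. The p-values therefore rest on differences among these libraries that may be technical.

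An antisense RNA can arise from a promoter shared with its partner and read away from it, from the partner's intron, or from beyond the partner's 3′ end. Known antisense RNAs act in cis on transcription or splicing of the partner, in trans as long noncoding RNAs, or have no assigned role. Many are capped, spliced and polyadenylated at a low level, and the unstable ones are removed in the nucleus by the RNA exosome. A polyA library samples the polyadenylated, more stable fraction.

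In GENCODE 29, the nearest start sites of a pair, over all its transcripts, lie within 1000 bases of each other in 237 of the pairs. RefSeq starts can lie elsewhere. The stretches below come from 4 such pairs whose members and partners both changed. They were picked among the pairs named below by the smaller of the 2 genes' changes, the largest first. In each of the 4 both genes moved in the same direction, whereas 19 pairs with starts this close were called in opposite directions. The stretches show what lies between or just before the starts. They are the bases within 250 of a start site that fall in no annotated exon, from RefSeq promoters on GRCh38.p14, each written 5′ to 3′ on the strand of the named gene. For ZNF566-AS1 the 38 bases lie before its start and before the second of 2 starts of ZNF566, downstream of the first, and the window before EPHA5-AS1 held no base outside exons. The stretch of SH3RF3 lies between the ends of the 2 divergent genes. Stretches before starts farther inside a gene are not printed for SH3RF3-AS1, with 2 matches to CACGTG, and for SERTAD4, with 1 to CCAAT. Capitals mark a match to any of 5 motifs searched on both strands: GGGCGG (the GC box), CACGTG (the E-box), CCAAT (bound by NF-Y), TGACTCA (the AP-1 site) and TATAAA (the core promoter box of that name). No marked matches overlap each other.
EPHA5, chr4:65670674-65670739, minus strand: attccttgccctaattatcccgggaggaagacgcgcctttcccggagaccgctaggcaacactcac
EPHA5, chr4:65669489-65669561, minus strand, before a second start: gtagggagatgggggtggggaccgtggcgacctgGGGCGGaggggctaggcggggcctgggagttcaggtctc
ZNF566-AS1, chr19:36489436-36489473, plus strand: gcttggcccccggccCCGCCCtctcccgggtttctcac
SH3RF3, chr2:109128955-109129204, plus strand: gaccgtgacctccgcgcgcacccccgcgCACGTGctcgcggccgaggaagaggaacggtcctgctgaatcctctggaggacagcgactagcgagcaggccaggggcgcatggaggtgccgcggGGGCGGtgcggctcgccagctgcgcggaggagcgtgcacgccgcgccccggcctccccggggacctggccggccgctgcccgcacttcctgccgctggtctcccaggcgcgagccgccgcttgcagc
SERTAD4-AS1, chr1:210234048-210234135, minus strand: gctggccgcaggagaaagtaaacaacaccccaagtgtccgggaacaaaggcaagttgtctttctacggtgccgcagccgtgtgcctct
SERTAD4, chr1:210232546-210232697, plus strand: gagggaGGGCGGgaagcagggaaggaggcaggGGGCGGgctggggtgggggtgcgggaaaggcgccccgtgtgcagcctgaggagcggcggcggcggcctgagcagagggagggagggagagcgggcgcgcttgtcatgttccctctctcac

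RefSeq promoter windows, from 250 bases before to 50 after a start, were found for 290 members and 318 partners. GGGCGG was present in 62.5% of the 352 members' windows, in 60.9% of the 530 partners' windows and in 45.0% of all 35116 windows. CCAAT was present in 26.7% of members' windows, 32.1% of partners' and 34.6% of all, and TATAAA in 3.98%, 7.92% and 11.5%. CACGTG was at 7.67% in members' windows, 7.92% in partners' and 7.26% in all, and TGACTCA at 5.11%, 2.83% and 4.95%. The median GC content was 65.3% in members' windows, 64.3% in partners' windows and 58.7% in all. These shares describe letters in the windows and say nothing of binding.

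Counts assigned to genes were 18151554, 19310446 and 19688089 in siSURF2 replicates 1, 2 and 3, and 17123333, 18858476 and 19573786 in siSCR replicates 1, 2 and 3. A level of 1 CPM, the unit of count scaled to library size, was therefore 17 to 20 counts. SURF2 itself was at 3.74, 3.56 and 3.20 CPM with siSURF2 and 36.2, 35.8 and 32.3 CPM with siSCR (log2 fold change -3.31 ± 0.10, SE, edgeR adjusted p = 3.7e-20). Replicate 2 of siSURF2 stood somewhat apart, with chi-squares over degrees of freedom of 7.96 and 9.19 against replicates 1 and 3, while replicates 1 and 3 gave 2.68 between them. Of osteoblast lineage genes, SPARC averaged 1408 CPM with siSURF2 and 1019 CPM with siSCR and RUNX2 23.1 and 22.8 CPM, while IBSP and TWIST1 were listed at 0 in both groups. Of 7 tested genes of that list, SPARC, COL1A1, SPP1 and PRRX1 rose, ALPL fell (log2 fold change -2.07), and RUNX2 and MSX2 were not called. COL1A2, SP7 and BGLAP were too low to test. Blood and endothelial markers summed to 3.61 to 4.70 CPM with siSURF2 and 5.00 to 5.75 CPM with siSCR, and CD3E and HBB were at 0. Epithelial markers summed to 1037 to 1113 CPM with siSURF2 and 1482 to 1610 CPM with siSCR, with 2 of 6 tested genes higher and 3 lower, and the part of any such shift in the results was not tested.

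The antisense RNAs were rare beside their partners. Their mean level had a median of 2.67 CPM and ran up to 192.3 CPM, and 153 of 385 were under 2 CPM. The 358 tested partners had a median of 32.5 CPM and all 17561 tested genes one of 16.6 CPM. Per kilobase of exon the median was 1.47 CPM for members and 5.79 CPM for partners. In 267 of 358 pairs the member was the lower of the pair per kilobase, with a median partner-to-member ratio of 3.66. Scaling to the bases that no exon of another gene covers, on either strand, gave a median ratio of 3.62 over 356 pairs. PRR11-AS1 was at 175.8 CPM per kilobase against 121.2 for PRR11, a cell cycle gene. FGD5-AS1 was at 21.8 CPM per kilobase against 0.398 for FGD5, an exchange factor for the GTPase Cdc42. HMGA2-AS1, at 0.245 CPM per kilobase against 14.4 for HMGA2, lay at the other end.

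**Figure D1:**
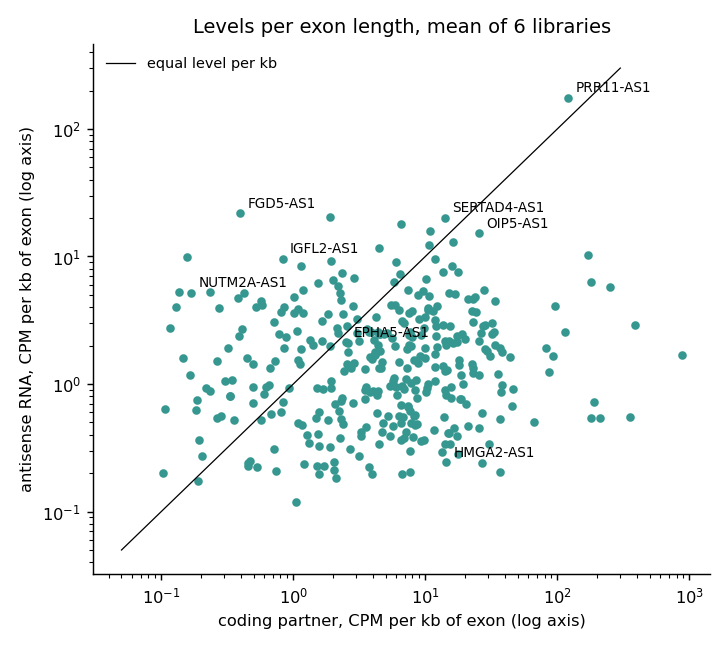
Mean level over 6 libraries of each antisense RNA (vertical axis) and its coding partner (horizontal axis), in CPM per kilobase of exon on log axes, with 1 point per pair and a line of equal level. Most points (267 of 358) lie below the line, and FGD5-AS1 (21.8 CPM per kilobase) and PRR11-AS1 (175.8) lie above it.

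The counts of overlapping genes need care, because no source used here gives the strand setting of the counting. Of 280 annotated antisense genes whose exonic bases all lie under exons of the other strand, 6 had any count, whereas 81.3% of 2657 with a partly covered sequence did. Exonic bases shared between strands therefore contributed almost no counts, and a member's value comes from its unshared bases. The members shared a median of 7.18% of their exonic bases with the partner, and 283 shared at least 1 base. Where a member's exons lie inside a partner's intron, its reads and those of unspliced partner RNA cannot be told apart. The same limit applies to a partner whose exons lie inside an intron of the antisense gene.

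With siSURF2, 63 antisense RNAs rose, 80 fell and 242 did not pass the test. In such bulk samples, fewer cells of a kind and less RNA per cell cannot be told apart. A change was called at an adjusted p under 0.05 in edgeR's quasi-likelihood test over all 17561 genes. Among all genes tested 52.0% were called, 25.8% higher and 26.2% lower. The members' share was 37.1% called, 16.4% higher and 20.8% lower, and all 385 passed the filter on low counts. Their median log2 fold change was -0.05, against 0.03 for the partners and 0.00 for all genes. Changes of at least 2-fold were found in 17 that rose and 21 that fell. The same share over all genes was not computed, so these counts cannot be called many or few. The groups did not overlap in CPM for 167 members (43.4%), against 57.3% of all genes tested.

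Members carried larger errors than other genes. The median standard error of the log2 fold change was 0.21 for members, 0.07 for partners and 0.09 for all genes. Below a mean of 5 CPM, a split chosen after the data were seen, 30.2% of 265 members were called, against 31.0% of all such genes. At 5 CPM or more, 52.5% of 120 members were called, against 62.6% of all such genes. In this upper class 19 members rose and 44 fell, which is 15.8% and 36.7%, whereas of all such genes 29.8% rose and 32.7% fell. The difference between these shares was not tested. Scaling by ERCC spike-in totals in place of gene counts cut the calls to 16 higher and 20 lower members and to 9.26% of all genes, and no called member changed sign. Among genes named below whose call ends without a single library, NEPRO, AP1G2-AS1, FRMD6-AS1, ST20, TTC28-AS1, NUTM2A-AS1, MCM3AP, AFAP1, ZEB1-AS1, ZEB1 and ADAM7-AS1 also lost it with ERCC scaling. Calls of PPIC, LOXL2, CLIP1, CEBPB-AS1, CEBPB, AP1G2, STARD4, ITGB2-AS1, ITGB2, PRKAG2-AS1, PSMA3, TMPO and MAPKAPK5 were likewise lost with ERCC scaling. So were those of OIP5-AS1, GAS6-AS1, GAS6, FLG-AS1, FLG, PRR11-AS1, PRR11, ARRDC1-AS1, TTC28, LOXL1-AS1, AFAP1-AS1, NNT-AS1 and SBF2-AS1. ERCC sequences held 1.27% to 1.72% of counts with siSURF2 and 1.12% to 1.72% with siSCR.

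**Figure D2:**
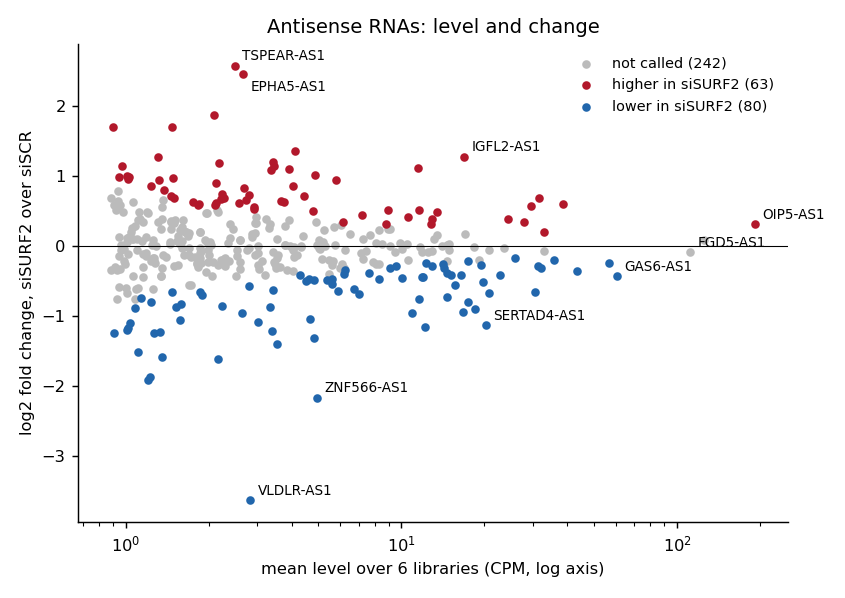
Log2 fold change of the 385 antisense RNAs, siSURF2 over siSCR, against mean level in CPM on a log axis, with 1 point per RNA. The 63 that rose and 80 that fell are coloured, and the largest changes (-3.64 for VLDLR-AS1, 2.58 for TSPEAR-AS1) lie below 5 CPM.

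The largest rises were in rare RNAs. TSPEAR-AS1, at chr21:44506807-44516575 inside TSPEAR, was at 4.01, 4.13 and 4.65 CPM with siSURF2 and 0.60, 0.70 and 0.82 CPM with siSCR. All siSURF2 libraries lay above all siSCR libraries, and the log2 fold change was 2.58 ± 0.24 (SE, edgeR adjusted p = 4.3e-10). TSPEAR, at 1.53 ± 0.129 CPM with siSURF2 and 1.17 ± 0.565 CPM with siSCR (SD, n = 3 each), overlapped between the groups and was not called. Without siSCR replicate 2, TSPEAR was called higher, with a log2 fold change of 0.85 (edgeR adjusted p = 0.045). IGFL2-AS1 was the most abundant of these risers, at 25.7, 20.3 and 25.7 CPM with siSURF2 and 11.7, 7.33 and 10.6 CPM with siSCR. Its groups did not overlap (1.28 ± 0.14, adjusted p = 1.3e-06). IGFL2, which encodes a small secreted protein of the insulin growth factor-like family, did not overlap with it in the genome and was not called (0.28 ± 0.23). LIPT2-AS1 and BAALC-AS1 rose by 1.28 and 1.21 on the log2 scale, while LIPT2 was not called and BAALC, with 50 counts in all, was not tested.

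The largest falls were of the same rare kind. VLDLR-AS1, at chr9:2421597-2643359, was at 0.49, 0.31 and 0.45 CPM with siSURF2 and 4.64, 4.87 and 6.26 CPM with siSCR. It was 12.6-fold lower in the mean with siSURF2, with no overlap (-3.64 ± 0.27, edgeR adjusted p = 2.9e-12). VLDLR, a receptor for very low density lipoprotein that starts 273 bases from it on the other strand, fell by 0.85 ± 0.12 on the log2 scale. PPIC-AS1 fell (-1.92 ± 0.33) beside a rise of PPIC, the prolyl isomerase cyclophilin C (0.29 ± 0.06). NEPRO-AS1, LOXL2-AS1 and CLIP1-AS1 had log2 fold changes of -1.61, -1.59 and -1.52, and the matching partners NEPRO, LOXL2 and CLIP1 had -0.15, -0.20 and 0.22. NEPRO, which encodes a nucleolar protein, lost its call without siSURF2 replicate 2 or 3 or siSCR replicate 2 (log2 fold change -0.12, -0.14 and -0.11), in DESeq2, without a filter, and with ERCC, upper-quartile or no scaling factors.

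Of the 358 tested partners, 107 rose, 105 fell and 146 did not pass the test, a called share of 59.2%, against 52.0% of all genes and 62.6% of those at 5 CPM or more. In 81 pairs both genes were called. In 53 of these the direction was the same, with 23 pairs higher and 30 lower, and in 28 it was opposite. Among the 28, the member rose and the partner fell in 10, and the member fell and the partner rose in 18. The member alone was called in 51 tested pairs, the partner alone in 131 and neither in 95. Over the 358 pairs the log2 fold changes correlated with Pearson's r of 0.37 and Spearman's rho of 0.27. This describes pairs that share 6 libraries and, in many cases, a start region or an intron. The sign was the same in 211 pairs (58.9%). The member had the larger absolute log2 fold change in 57 of the 81 pairs with both called. Pairs with starts within 1000 bases had 35 in the same direction and 19 opposite (r = 0.41, rho = 0.24, over 228 pairs). With starts farther apart, 18 had the same and 9 the opposite direction (r = 0.30, rho = 0.30, over 130 pairs). The difference between these 2 sets was not tested.

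**Figure D3:**
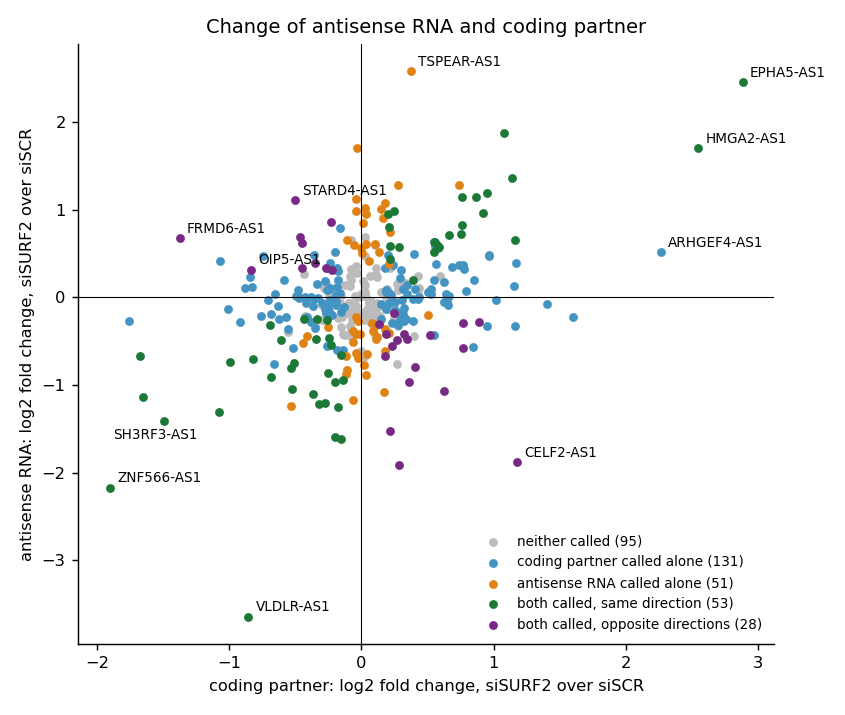
Log2 fold change of each antisense RNA (vertical axis) against that of its coding partner (horizontal axis), siSURF2 over siSCR, for 358 pairs coloured by which of the pair was called. EPHA5-AS1 and HMGA2-AS1 lie at the upper right, ZNF566-AS1 and SH3RF3-AS1 at the lower left, and CELF2-AS1 and FRMD6-AS1 in the opposite quadrants.

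EPHA5-AS1 and EPHA5 rose together. EPHA5 is an ephrin receptor tyrosine kinase, and the annotated starts of the pair are 26 bases apart, near the stretches printed above. EPHA5-AS1 (chr4:65669961-65698029) was at 5.33, 4.39 and 3.85 CPM with siSURF2 and 0.71, 0.70 and 1.03 CPM with siSCR. EPHA5 was at 46.9, 39.8 and 44.0 CPM with siSURF2 and 5.24, 5.40 and 6.93 CPM with siSCR. Neither gene's groups overlapped, and the log2 fold changes were 2.45 ± 0.24 for the antisense RNA and 2.89 ± 0.10 for the partner (SE, edgeR adjusted p = 1.3e-09 and 3.2e-19). Of the exonic bases of EPHA5-AS1, 42.5% lie under exons of EPHA5.

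ZNF566-AS1 and ZNF566 fell together. ZNF566 encodes a zinc finger protein of the KRAB family. The antisense RNA (chr19:36489649-36491040) was at 2.53, 1.55 and 1.35 CPM with siSURF2 and 9.05, 7.01 and 8.27 CPM with siSCR. ZNF566 was at 5.88, 7.49 and 6.30 CPM with siSURF2 and 21.3, 26.3 and 25.8 CPM with siSCR. Both were lower in every siSURF2 library (-2.17 ± 0.19 and -1.90 ± 0.11, edgeR adjusted p = 1.5e-10 and 2.0e-14). The ratio of member to partner overlapped between the groups (exact permutation p = 0.6, two-sided), and 3 libraries against 3 cannot give less than 0.1.

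SH3RF3-AS1 and SH3RF3 are divergent genes with no overlap, so shared bases and introns bear on neither in this annotation. SH3RF3 encodes a RING-type ubiquitin ligase with SH3 domains. SH3RF3-AS1 (chr2:109127327-109128930) was at 2.80, 1.19 and 1.85 CPM with siSURF2 and 5.18, 5.72 and 4.52 CPM with siSCR. SH3RF3 was at 12.8, 13.2 and 11.6 CPM with siSURF2 and 33.4, 39.6 and 32.8 CPM with siSCR. The groups did not overlap for either gene, and the log2 fold changes of -1.41 ± 0.22 and -1.49 ± 0.09 lay within 1 SE of each other (difference 0.09 ± 0.23). RefSeq places a start of SH3RF3-AS1 further into SH3RF3 than GENCODE does, at position 109130119.

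SERTAD4-AS1 was among the more abundant members that fell. It lies at chr1:210231456-210234047, and 17.3% of its exonic bases lie under exons of SERTAD4. It was at 12.0, 13.0 and 12.9 CPM with siSURF2 and 29.8, 26.2 and 27.5 CPM with siSCR (-1.13 ± 0.08, edgeR adjusted p = 4.9e-12). SERTAD4 was at 37.7, 38.0 and 35.4 CPM with siSURF2 and 111.5, 115.7 and 122.4 CPM with siSCR (-1.65 ± 0.06). Each gene had a clear gap between the groups.

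HMGA2-AS1 and UNC5B-AS1 rose with partners whose introns hold them. HMGA2 encodes a chromatin protein that binds AT-rich DNA. HMGA2-AS1 was at 1.87, 1.81 and 3.10 CPM with siSURF2 and 0.71, 0.80 and 0.56 CPM with siSCR (1.70 ± 0.31). HMGA2 was at 358.3, 381.5 and 394.9 CPM with siSURF2 and 64.4, 67.2 and 62.4 CPM with siSCR (2.55 ± 0.05, edgeR adjusted p = 1.1e-23). Introns of HMGA2 cover 93.6% of the exonic bases of HMGA2-AS1. UNC5B-AS1 was at 4.84, 6.56 and 6.40 CPM with siSURF2 and 2.20, 2.03 and 2.67 CPM with siSCR (1.36 ± 0.18), inside an intron of UNC5B, a netrin receptor that rose by 1.14 ± 0.09. All 4 genes had groups that did not overlap, and the part of unspliced partner RNA in the antisense counts was not tested. ATP2B1-AS1, whose start faces that of the plasma membrane calcium pump gene ATP2B1 at 128 bases, rose by 1.87 ± 0.24 beside 1.08 ± 0.06 for ATP2B1.

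**Figure D4:**
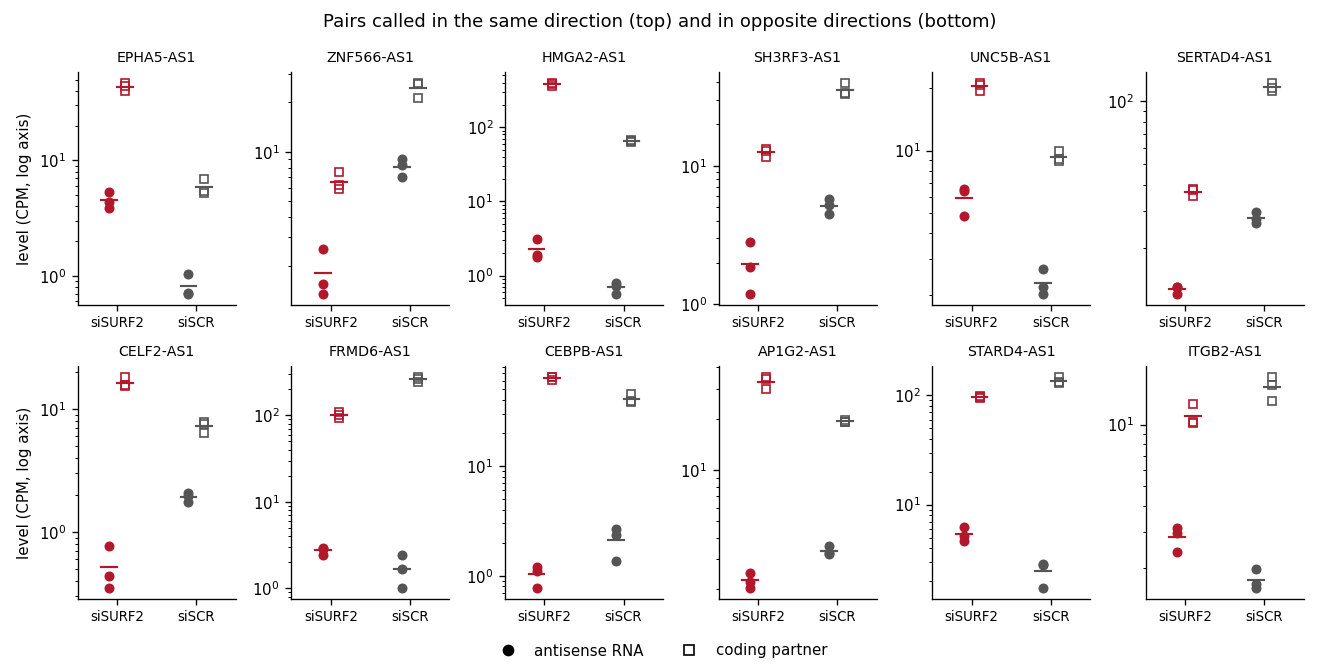
Level in CPM on log axes in each library for the 6 pairs with the largest changes in the same direction (top) and in opposite directions (bottom), siSURF2 left of siSCR, filled circles for the antisense RNA, open squares for the coding partner and bars for the mean of 3 libraries. In the top panels both symbols move the same way, as for ZNF566-AS1 (1.81 CPM with siSURF2, 8.11 CPM with siSCR) and ZNF566 (6.56 and 24.5 CPM), and in the bottom panels they move apart.

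CELF2-AS1 had the largest opposite change. CELF2 encodes an RNA-binding regulator of splicing, and CELF2-AS1 lies whole inside one of its introns. CELF2-AS1 (chr10:11316834-11319884) was at 0.44, 0.77 and 0.35 CPM with siSURF2 and 2.08, 1.98 and 1.75 CPM with siSCR (-1.88 ± 0.33, edgeR adjusted p = 1.9e-05). CELF2 was at 15.3, 18.3 and 15.7 CPM with siSURF2 and 7.62, 6.37 and 7.86 CPM with siSCR (1.18 ± 0.11, adjusted p = 7.2e-10). The antisense RNA was lower and the partner higher in every siSURF2 library.

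STARD4-AS1 rose while STARD4, a carrier of cholesterol between membranes, fell. STARD4-AS1 was at 5.11, 4.65 and 6.30 CPM with siSURF2 and 1.73, 2.83 and 2.82 CPM with siSCR (1.11 ± 0.19, edgeR adjusted p = 1.8e-05). STARD4 was at 98.5, 96.1 and 94.6 CPM with siSURF2 and 133.0, 129.2 and 147.6 CPM with siSCR (-0.50 ± 0.05). Starts of the pair are 245 bases apart, and neither gene's groups overlapped.

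CEBPB-AS1 and AP1G2-AS1 fell while the transcription factor gene CEBPB and AP1G2, a subunit of a clathrin adaptor, rose. CEBPB-AS1 averaged 1.03 ± 0.226 CPM with siSURF2 and 2.13 ± 0.682 CPM with siSCR (SD, n = 3 each), and CEBPB 63.3 ± 2.59 and 41.0 ± 3.49 CPM. AP1G2-AS1 averaged 2.25 ± 0.234 CPM with siSURF2 and 3.36 ± 0.191 CPM with siSCR, and AP1G2 33.0 ± 2.85 and 19.3 ± 0.249 CPM. Exons of AP1G2 cover 83.3% of AP1G2-AS1. Its fall (-0.58 ± 0.20, edgeR adjusted p = 0.015) lost its call without siSURF2 replicate 1 (-0.49) or siSCR replicate 2 (-0.52), and with ERCC scaling (-0.60).

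FRMD6-AS1 and ITGB2-AS1 rose while FRMD6, a FERM-domain gene of the Hippo pathway, and ITGB2, a leukocyte integrin subunit, fell. FRMD6-AS1 was at 2.97, 2.43 and 2.85 CPM with siSURF2 and 1.01, 1.66 and 2.41 CPM with siSCR, so the groups nearly touched. FRMD6 was at 99.9, 109.1 and 93.7 CPM with siSURF2 and 263.5, 277.8 and 243.2 CPM with siSCR (-1.37 ± 0.06). The call of FRMD6-AS1 (0.67 ± 0.25, edgeR adjusted p = 0.024) was lost in DESeq2 (adjusted p = 0.059) and with ERCC scaling (0.40). It was also lost without siSCR replicate 1 (log2 fold change 0.42), siSCR replicate 2 (0.66), siSURF2 replicate 1 (0.64) or siSURF2 replicate 3 (0.65). ITGB2-AS1 had a log2 fold change of 0.69 ± 0.22 and ITGB2 of -0.46 ± 0.11. Over all pairs, those called in opposite directions numbered 17 without siSURF2 replicate 1 and 17 without siSCR replicate 2, against 28 with all libraries. With ERCC scaling CELF2-AS1 and CELF2 were the 1 pair so called.

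Pairs were classed by their arrangement on the genome. The 5′ ends overlap in 173 pairs, where 28 members rose and 37 fell. Of the 76 pairs with overlapping 3′ ends, 10 members rose and 16 fell. The antisense gene lies inside the partner in 73, of which 14 rose and 13 fell, and the partner inside the antisense gene in 33, of which 5 rose and 9 fell. Among 25 divergent pairs with no overlap, 4 members rose and 5 fell. The called share ran from 34.2% for overlapping 3′ ends to 42.4% for the class that holds its partner, against 52.0% of all genes. A further class of 2 convergent pairs without overlap, 1 of them IGFL2-AS1, had 1 member that rose.

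Direction within the pair was the same in 22 and opposite in 13 pairs with overlapping 5′ ends. It was the same in 10 and opposite in 7 with overlapping 3′ ends, and the same in 11 and opposite in 6 with the antisense gene inside the partner. Divergent pairs without overlap had 6 in the same direction and 2 opposite, and a Pearson's r of log2 fold changes of 0.67 over 25 pairs. Overlapping 5′ ends gave 0.42 over 166 pairs, and overlapping 3′ ends 0.18 over 69. The antisense gene inside the partner gave 0.29 over 73. The partner inside the antisense gene gave 0.33 over 23, with 4 pairs in the same direction and 0 opposite. Spearman's rho was 0.50 for divergent pairs without overlap and 0.42 for the partner inside the antisense gene. It was 0.26 both for overlapping 5′ ends and for the antisense gene inside the partner, and 0.11 for overlapping 3′ ends. Pairs without a shared exonic base had 14 in the same and 6 in opposite directions (r = 0.24, rho = 0.31, over 91 pairs). Those that share exonic bases had 39 and 22 (r = 0.41, rho = 0.27, over 267 pairs). Where under 10% of a member's exonic bases lie in partner introns, 24 pairs had the same and 11 the opposite direction. Their r was 0.47 and their rho 0.33 over 172 pairs. Where at least 50% of these bases lie in partner introns, the numbers were 17 and 11 (r = 0.26, rho = 0.22, over 109 pairs). No difference between these classes was tested.

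**Figure D5:**
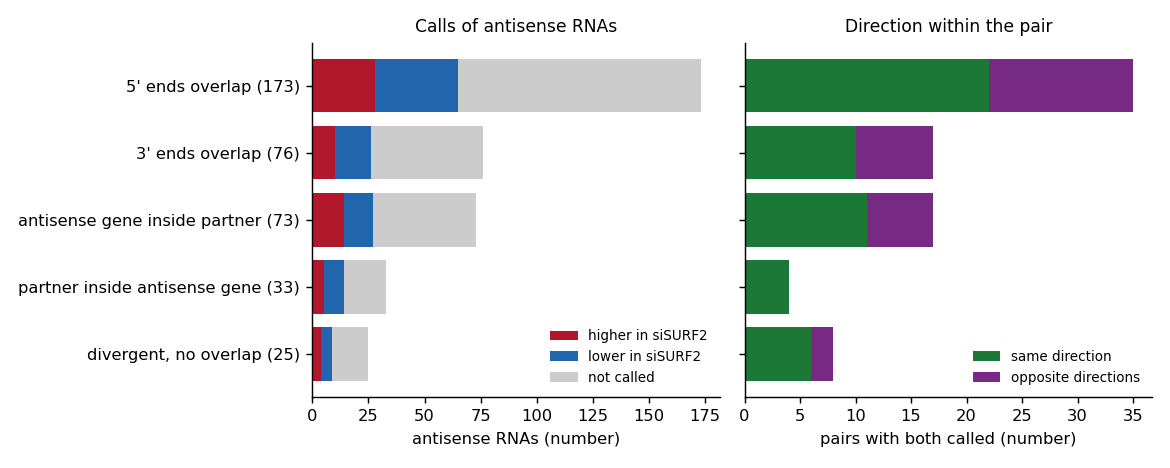
Number of antisense RNAs that rose, fell or were not called with siSURF2 against siSCR (left) and of pairs with both genes called in the same or opposite directions (right), by arrangement on the genome, with class sizes in brackets. Overlapping 5′ ends form the largest class (173), and same-direction pairs outnumber opposite ones in each class shown.

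Some antisense RNAs were called where the partner was not. PSMG3-AS1, whose start lies 28 bases from that of the proteasome assembly gene PSMG3, was at 16.8, 14.7 and 15.9 CPM with siSURF2 and 7.74, 7.11 and 6.93 CPM with siSCR. It was higher in every siSURF2 library than in any siSCR library (1.12 ± 0.11, edgeR adjusted p = 7.2e-10), while PSMG3 averaged 56.9 ± 1.22 CPM with siSURF2 and 58.4 ± 1.48 CPM with siSCR (SD, n = 3 each; -0.04 ± 0.06). The ratio of the pair did not overlap between the groups (exact permutation p = 0.1, two-sided, the smallest this design allows). HECW2-AS1 rose (1.71 ± 0.39) inside the ubiquitin ligase gene HECW2, which had -0.03 ± 0.15. SLC12A5-AS1 fell (-1.08 ± 0.20) beside the potassium-chloride cotransporter gene SLC12A5 (0.17 ± 0.15). PRKAG2-AS1 fell (-1.18 ± 0.33) beside PRKAG2, which encodes a subunit of AMP-activated kinase (-0.07 ± 0.07).

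Other partners were called where the antisense RNA was not. ZBED3, a zinc finger gene of the Wnt pathway, rose by 1.60 ± 0.11 on the log2 scale, while ZBED3-AS1 was at 3.74, 2.84 and 2.15 CPM with siSURF2 and 2.68, 3.80 and 3.59 CPM with siSCR. These values of ZBED3-AS1 overlapped (-0.22 ± 0.21, edgeR adjusted p = 0.40). ARHGEF4, a guanine nucleotide exchange factor gene, rose by 2.27 ± 0.26 beside 0.51 ± 0.34 for ARHGEF4-AS1, whose 105 counts in all give a wide error. RAET1E, which encodes a ligand of the NKG2D receptor, fell by 1.07 ± 0.22 beside 0.41 ± 0.21 for RAET1E-AS1. Without siSURF2 replicate 2, RAET1E-AS1 was called higher (0.58). TMC3 (-1.76 ± 0.47) and ST20 (1.41 ± 0.46) were called at under 1 CPM in every library, while TMC3-AS1 and ST20-AS1 had -0.27 ± 0.29 and -0.08 ± 0.20. ST20 lost its call without siSCR replicate 1 or 3 (1.17 and 1.19).

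The most abundant member, OIP5-AS1, is a conserved, widely expressed long noncoding RNA. It lies at chr15:41283990-41309737, tail to tail with OIP5, a gene of centromere assembly. OIP5-AS1 was at 208.8, 217.1 and 213.9 CPM with siSURF2 and 167.2, 161.1 and 185.6 CPM with siSCR. It rose 1.25-fold in the mean, with no overlap (0.32 ± 0.05, edgeR adjusted p = 1.2e-05). This call was lost with ERCC scaling (0.26 ± 0.26, edgeR adjusted p = 0.67). OIP5 fell to 24.5, 20.4 and 22.8 CPM with siSURF2, against 41.2, 38.8 and 40.6 CPM with siSCR (-0.83 ± 0.07). The next in level, CCDC144NL-AS1 (0.08 ± 0.05) and FGD5-AS1 (-0.09 ± 0.05), were not called, although CCDC144NL-AS1 was with upper-quartile scaling (0.13, adjusted p = 0.043).

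GAS6-AS1 fell while GAS6, the ligand of the receptor tyrosine kinases AXL, TYRO3 and MERTK, rose. GAS6-AS1 was at 55.6, 42.4 and 56.5 CPM with siSURF2 and 68.8, 69.9 and 69.9 CPM with siSCR (-0.43 ± 0.08, edgeR adjusted p = 0.00019). GAS6 was at 113.8, 115.4 and 111.8 CPM with siSURF2 and 85.0, 77.1 and 76.1 CPM with siSCR (0.52 ± 0.05). Neither gene's groups overlapped. Introns of GAS6 cover 93.3% of the exonic bases of GAS6-AS1.

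FLG-AS1 rose with filaggrin, FLG, which lies inside it: 0.60 ± 0.07 and 0.57 ± 0.06 on the log2 scale. The part of unspliced FLG-AS1 RNA in the counts of FLG was not tested. PRR11-AS1 and PRR11 both fell (-0.25 ± 0.06 and -0.33 ± 0.05). TTC28-AS1 and TTC28 both rose (0.20 ± 0.07 and 0.39 ± 0.12), and TTC28-AS1 was not called without siSCR replicate 2 (0.16). ARRDC1-AS1 fell (-0.36 ± 0.07) beside ARRDC1 at 0.18 ± 0.08, which was called higher without siSCR replicate 1 (0.25). NUTM2A-AS1 fell (-0.20 ± 0.07), a call lost without siSURF2 replicate 1 (-0.15) or siSCR replicate 3 (-0.13) and with upper-quartile or ERCC scaling (-0.16 and -0.26). PSMA3-AS1 was not called (-0.07 ± 0.11) while the proteasome subunit gene PSMA3 fell by 0.42 ± 0.05.

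Antisense RNAs with a literature of their own moved in various ways. LOXL1-AS1 fell (-0.67 ± 0.07, edgeR adjusted p = 7.1e-09), at 22.5, 25.1 and 23.2 CPM with siSURF2 and 35.4, 38.5 and 38.4 CPM with siSCR, beside LOXL1, an elastin crosslinking enzyme gene, at -0.12 ± 0.08. MCM3AP-AS1 fell (-0.94 ± 0.09), at 12.1, 10.6 and 11.5 CPM with siSURF2 and 19.6, 24.0 and 22.2 CPM with siSCR. Its partner MCM3AP, an mRNA export gene, fell by 0.14 ± 0.05, a call lost without siSURF2 replicate 1 (-0.12) or siSCR replicate 2 (-0.12), without a filter, and with ERCC or upper-quartile scaling (-0.18 and -0.09). Neither antisense RNA overlapped between the groups. SBF2-AS1 fell (-0.45 ± 0.10) beside SBF2 at 0.12 ± 0.06, which was called without siSCR replicate 3 (0.17).

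AFAP1-AS1 (0.86 ± 0.17), NNT-AS1 (0.41 ± 0.11) and ZEB1-AS1 (0.32 ± 0.10) rose. AFAP1, an actin filament gene, fell by 0.23 ± 0.07, a call lost without siSURF2 replicate 3 (-0.15). NNT, a mitochondrial transhydrogenase gene, had 0.06 ± 0.06. ZEB1, a repressor active in epithelial-mesenchymal transition, fell by 0.22 ± 0.07. The call of ZEB1-AS1 was lost without siSCR replicate 2 (0.28) or 3 (0.25), and that of ZEB1 without siSURF2 replicate 1 (-0.16) or siSCR replicate 3 (-0.17).

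TMPO-AS1 (0.00 ± 0.18), MAPKAPK5-AS1 (0.04 ± 0.09) and THAP9-AS1 (0.17 ± 0.09) did not pass the test. TMPO, a nuclear lamina gene, fell by 0.38 ± 0.05 on the log2 scale, and its start lies 42 bases from that of TMPO-AS1. MAPKAPK5, a kinase gene, rose by 0.35 ± 0.07. TTN-AS1, with 58 counts in all, CDKN2B-AS1 with 1, PTPRG-AS1 and EGFR-AS1 with 13 each, TP73-AS1 with 4, and FOXD3-AS1 and GATA6-AS1 with 0 were under the count minimum.

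Just inside that minimum stood NHSL1-AS1 and TICAM2-AS1 with 100 counts and SLC12A9-AS1 with 102, at log2 fold changes of 0.69, -0.35 and -0.29. Just outside stood ADAM7-AS1 and CLDN14-AS1 with 99 and CD101-AS1 with 98, at 1.00, -0.20 and -0.25. NHSL1-AS1 was called higher without siSURF2 replicate 2 (0.94). ADAM7-AS1, called higher with all libraries, was not called without siSURF2 replicate 1 (0.88) or siSCR replicate 1 or 3 (0.94 and 0.96), in DESeq2 (1.01) or with ERCC scaling (0.95). Their errors of 0.34 to 0.38 show what about 100 counts over 6 libraries resolve.

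For 24 members the partner had too few counts to test, and HOXB-AS1, HOXC-AS1 and MYL12-AS1 had no row named before the suffix. Some of these members were chosen for mention after their values were seen. ADIRF-AS1 was at 39.9, 34.7 and 42.1 CPM with siSURF2 and 26.0, 24.3 and 22.5 CPM with siSCR (0.68 ± 0.08, edgeR adjusted p = 2.1e-08), while ADIRF was listed at 0. Exons of other genes cover 100% of the exonic bases of ADIRF, so its 0 does not give its level. They also cover 93.4% of those of TICAM2, the partner of TICAM2-AS1. SDCBP2-AS1 was at 7.37, 6.97 and 8.25 CPM with siSURF2 and 16.0, 16.5 and 17.8 CPM with siSCR (-1.15 ± 0.10). Neither overlapped between the groups. HOXC-AS1, from the homeobox C cluster, rose (0.73 ± 0.22), and HOXB-AS1 was not called (-0.18 ± 0.17).

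Genes that make, trim or sense such RNAs were taken from short lists. Of 24 genes of the nuclear exosome and its adaptors, 1 rose and 17 fell, with a median log2 fold change of -0.28, against 25.8% higher and 26.2% lower of all genes. EXOSC2 and EXOSC3, RNA-binding cap subunits, fell by 0.59 ± 0.06 and 0.61 ± 0.06, and NCBP1, a subunit of the nuclear cap-binding complex, rose by 0.31 ± 0.05. Of 24 genes of cleavage, polyadenylation and termination, 3 rose and 13 fell (median -0.15). Among them CSTF2T, a cleavage stimulation factor, fell by 0.58 ± 0.06, and PAPOLG, a poly(A) polymerase, rose by 0.35 ± 0.08. Calls higher in this list numbered 1 in DESeq2 and without siSURF2 replicate 3 or siSCR replicate 2. With ERCC scaling no gene of these lists, nor of the Integrator and double-stranded RNA lists that follow, was called in edgeR.

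The Integrator complex, which ends transcription of many noncoding RNAs early, had 5 of 15 genes higher and 4 lower (median 0.04), with INTS3 at 0.38 ± 0.06 and INTS14 at -0.44 ± 0.06. These shares lie near those of all genes, 25.8% higher and 26.2% lower. Of 14 genes for enzymes and sensors of double-stranded RNA, 2 rose and 5 fell (median -0.08), against the same background of 25.8% and 26.2%, and 4 were higher with upper-quartile scaling. ADARB1, an RNA adenosine deaminase, rose by 0.50 ± 0.08, and PRKRA, an activator of the kinase PKR, fell by 0.33 ± 0.06. Of 5 tested nuclear-retained long RNAs, JPX rose (0.26 ± 0.10) and 4 were not called, against 25.8% higher of all genes. The call of JPX was lost in DESeq2, with ERCC scaling and without siSURF2 replicate 2 or 3 or siSCR replicate 2 or 3. Summed levels of this list ran from 809 to 1773 CPM among siSURF2 libraries and from 1192 to 1468 CPM among siSCR libraries. Whether the levels of these genes bear on the antisense RNAs was not tested.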

How the data were processed

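The table the authors deposited holds raw counts of reads per gene in 6 libraries, not normalized. The build was GRCh38, per the submitters' processing notes, which list fastp 0.23.1 and STAR 2.5.2b. No source used here names the counter, its annotation or its strand setting. Of 58051 gene identifiers, 56948 were named from a gene name table and 499 from GENCODE 29, which also gave coordinates, and 604 stayed unnamed. The 92 ERCC rows stayed out of library sizes and tests.

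Counts were filtered with filterByExpr (minimum count 10, minimum total 15), scaled with TMM factors and tested with the quasi-likelihood F-test of edgeR 4.0.16 in R 4.3.3 (robust, group term). Benjamini-Hochberg adjustment ran over 17561 genes with a threshold of 0.05. Errors beside log2 fold changes are SE, the absolute unshrunk value over the square root of F. The fit was tested on simulated data. CPM values are TMM-scaled.

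Named members were the 8 highest and 8 lowest called with non-overlapping groups and at least 1 CPM, the 10 most abundant, the 6 largest pairs in each relation, 5 per class called alone, literature examples and those next to the count minimum. Of these, 1 member taken by this rule is not reported here. Members and lists were chosen with earlier results of these data known. Alternatives were RLE, upper-quartile, no and ERCC scaling, other filters, DESeq2 1.42.0, limma-voom 3.58.1, a replicate block, other count minimums and leaving out each library.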

Additional observations from a re-analysis of the deposited data

How the results depend on the processing

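SURF2 kept its call under every setting run (log2 fold change -3.37 to -3.25 without single libraries). With each library left out in turn, members higher numbered 51 to 64, members lower 61 to 77, partners higher 99 to 104, partners lower 90 to 104, same-direction pairs 40 to 48 and opposite pairs 17 to 28. ERCC scaling gave 16 higher and 20 lower members, 15 higher and 18 lower partners, 11 same-direction pairs and 1 opposite pair, and 36 of 143 member calls remained. The median log2 fold change of all genes was -0.035 with ERCC scaling and 0.004 with TMM factors. The errors were wider, as for SURF2, at -3.35 ± 0.31 with ERCC scaling and -3.31 ± 0.10 with TMM factors. The cause of the lost calls was not tested. Fewer members entered other settings by construction. A minimum of 500 counts gave 22 and 50 members higher and lower, 33 and 35 partners, and 23 same and 15 opposite pairs, and one of 200 counts gave 69 partners higher. Without exon-sharing pairs the numbers were 21, 17, 29, 27, 14 and 6. Without members lying at least 50% in partner introns, a choice made after seeing the data, 70 partners were higher and 17 pairs opposite. DESeq2 kept 112 of the 143 member calls, limma-voom 140 and RLE scaling 143. No call of a named gene reversed under these settings.

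Same-numbered libraries of the groups did not deviate together (correlations 0.0035, -0.092 and -0.039). This cannot exclude that they were handled together, and the labels do not say. With the replicate number as a block, 60 members were higher and 75 lower, with 49 same-direction and 25 opposite pairs. Depth limits the rare members: at about 100 counts only large changes pass.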

Other observations

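RNAs with other suffixes of the same kind were measured too. Of 183 divergent transcripts (symbols ending in -DT) with at least 100 summed counts, 26 rose and 38 fell with siSURF2, a called share of 35.0%, against 37.1% of the -AS1 members and 52.0% of all genes tested. In 42 of these both the transcript and the coding gene it is named for were called, 33 in the same direction and 9 in opposite directions. Of 21 RNAs ending in -AS2, 8 rose and 2 fell, and of 5 ending in -AS3, 2 rose and 1 fell, against 25.8% higher and 26.2% lower of all genes. The difference from the -AS1 members (53 pairs in the same direction and 28 opposite) was not tested.

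A group of partners picked after their values were seen is the zinc finger genes with ZNF symbols. Of 18 -AS1 members with such a partner, 1 rose and 7 fell. Of the 17 tested ZNF partners, 4 rose and 6 fell, near the shares of all genes (25.8% higher and 26.2% lower). Of all -AS1 members 16.4% rose and 20.8% fell. Both genes were called in 6 of these pairs, 5 in the same direction. ZNF529-AS1 and ZNF529 had log2 fold changes of -1.31 and -1.08, ZNF45-AS1 and ZNF45 of -1.05 and -0.52, and ZNF674-AS1 and ZNF674 of -0.81 and -0.53. ZNF516-AS1 and ZNF516 had 0.83 and 0.76. ZNF687-AS1 fell by 0.80 beside ZNF687 at 0.40.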
